A study of Mus musculus with 18 samples.

Results

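The chromosomal contacts of Ifng in Th1 cells were set against those in naive CD4 T cells, on the 4 arrays whose titles give Ifng as the bait and Th1 or naive as the cells. These are 2 Th1 and 2 naive arrays, out of 10 arrays with this bait and 18 in the series. Both groups are labelled as mouse primary CD4+ T cells. The Th1 arrays carry Th1 as their treatment and the naive arrays carry none. Strain, age, culture time and any activation step are not given in the sources used here, so differentiation and activation cannot be told apart. Per its title, the study asked how STAT proteins relate to the organisation of the nucleus as T cells differentiate. The extraction protocol speaks of adherent cells and of other bait genes, and the titles were followed. The design text counts an array pooled from 2 biological replicates without naming it.

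Ifng encodes interferon gamma, the cytokine by which Th1 cells activate macrophages and the genes of antiviral defence. Naive CD4 T cells keep the gene silent, and Th1 cells, made under interleukin 12, STAT4 and T-bet, can switch it on at once. In 4C, chromatin is crosslinked, cut and ligated, so that fragments that lay close together in the nucleus are joined, and those joined to a chosen fragment, the bait, are amplified from it. Such maps usually show a steep peak around the bait, a series of separate domains along the same chromosome (cis) and weak signal on other chromosomes (trans). The domains tend to be stretches of gene-rich, lightly staining chromatin.

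The array design has 384942 probes, typically 5037 bp apart (median), and 19736 of them (5.13%) lie on chromosome 10. The value of a probe is the log2 ratio of 4C DNA over digested genomic DNA, centred on the array's median off chromosome 10, so that 0 is the typical trans probe. Levels are means of probes, and a change is the Th1 mean minus the naive mean. Positions are in mm8, as inferred from the probe positions. Distances are from the centre of the highest 500-kb bin of chromosome 10 (117500001 to 118000000). This bin was the highest on 2 of the 4 arrays, Th1 replicate 2 and naive replicate 1, and the highest bin began at 117000001 on Th1 replicate 1 and at 116500001 on naive replicate 2, so the bait is placed only roughly.

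Replicates resembled each other on chromosome 10, with r over 500-kb bins of 0.929 for the Th1 pair and 0.975 for the naive pair, against 0.711 to 0.803 between the groups. Off chromosome 10, r was 0.171 for the Th1 pair and 0.757 for the naive pair. Between the groups it was 0.106 and 0.057 for Th1 replicate 1 with the naive arrays, and 0.353 and 0.377 for Th1 replicate 2. In trans, Th1 replicate 2 was thus more like the naive arrays than like its own replicate. The sorted values of the naive pair were equal within 0.011 for 99.99% of probes, and those of the Th1 pair for 42.8%, so the naive SDs are small where many probes are averaged. The labels do not say if both pairs were normalized alike before deposit, and its part in the Th1 minus naive differences was not tested beyond the quantile normalization below. The SD of bins off chromosome 10 was 0.048 and 0.055 on the Th1 arrays, against 0.098 and 0.131 on the naive arrays. Over probes, Th1 replicate 2 was most like an Il4 array of Th2 cells (r = 0.347, against 0.149 with its own replicate). At the Il4 bait bin on chromosome 11 (53000001 to 53500000) Th1 replicate 2 had a log2 ratio of 0.05, where that Il4 array had 2.92, and at the Ifng bait bin the Il4 array had 0.04. Neither array had the other's bait peak, and the source of their likeness was not tested. Whether the replicates are separate mice or cultures is not labelled, and the p-values cover only array-to-array spread, which may be technical. An exact permutation test of 2 against 2 arrays cannot go below p = 0.333.

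In the bin of the bait the contact levels of the groups overlapped, and the levels of the next bins were lower in Th1 cells or did not pass the test. The bin holding the bait (117500001 to 118000000) had log2 ratios of 2.27 and 3.22 on the Th1 arrays, against 3.51 and 2.80 on the naive arrays. The change of -0.41 (SE 0.22) did not pass the test (limma adjusted p = 0.203). Within 0.1 Mb of the bait the 20 probes averaged 1.98 and 3.15 in Th1 cells and 3.44 and 2.82 in naive cells, again with overlap. The bin before it (117000001 to 117500000) had 2.30 and 2.82 in Th1, against 3.24 and 2.82 in naive cells, and was called lower (change -0.47, limma adjusted p = 0.0294). The bin after it was not (change -0.46, limma adjusted p = 0.0868). At 0.5 to 1 Mb the groups no longer overlapped, with 2.12 and 2.63 in Th1, against 3.14 and 2.74 in naive cells. The signal formed a plateau and not a point. Over the 306 probes within 1 Mb the median was 2.40 and 3.09 on the Th1 arrays and 3.51 and 2.87 on the naive arrays, and 88.2% and 90.2% of probes on the Th1 arrays stood above a log2 ratio of 1, against 94.8% and 95.4% on the naive arrays.

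In 100-kb bins the profile split into a plateau, where few bins passed the test, and flanks that were lower in Th1 cells. On the plateau Th1 replicate 2 mixed with the naive arrays, and Th1 replicate 1 lay below both of them in each bin. All 20 changes within 1 Mb were negative (-0.19 to -2.13). These bins averaged 2.16 and 2.72 on the Th1 arrays, against 3.28 and 2.77 on the naive arrays. Of the 20 bins centred within 1 Mb of the bait, 3 were called lower at a limma adjusted p under 0.05 and the others did not pass, where 2.20% of all 23888 bins of this size were called and 2.11% were lower (29.2% of those on chromosome 10). The Th1 and naive arrays did not overlap in 9 of these 20 bins, and 19.0% of all bins of this size were lower without overlap. Of the 20 bins centred at 1 to 2 Mb, 17 were called lower, all 10 before the bait and 7 of 10 after it. The median change of these 20 bins was -1.22, against -0.51 within 1 Mb. The 3 called bins within 1 Mb began at 116700001, 117000001 and 118700001, the first and last at the margins. The central 100-kb bin held too few probes to be used.

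On the right, Th1 replicate 2 fell off the plateau earlier than the naive arrays, and Th1 replicate 1 fell more gradually. In the bin from 118600001 to 118700000 the Th1 arrays had 1.83 and 2.69 and the naive arrays 2.57 and 2.32, which overlapped. In the next bin (118700001 to 118800000) the Th1 arrays had 1.95 and 0.41, against 3.38 and 3.24 on the naive arrays, a change of -2.13 (SE 0.33, limma adjusted p = 0.00299). Both naive arrays stayed on the plateau there, and Th1 replicate 2 had left it. Th1 replicate 1 had 1.32 in the bin from 118800001 and 1.34 in that from 118900001. Naive replicate 2 had dropped to 1.96 in the latter, where naive replicate 1 had 2.93. The level of the naive arrays dropped further out, to 1.33 and 1.25 at 119000001 to 119100000, where the Th1 arrays had 0.80 and 0.18. On the left the largest fall lay at 115700001 to 115800000, with 1.04 and 0.28 on the Th1 arrays and 3.05 and 2.85 on the naive arrays, a change of -2.29 (SE 0.20, limma adjusted p = 1.84e-05). In 500-kb bins the fall was -1.68 (SE 0.090) at 115500001 to 116000000 and -1.27 (SE 0.13) at 118500001 to 119000000, with limma adjusted p of 5.04e-10 and 4.15e-06.

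**Figure D1:**
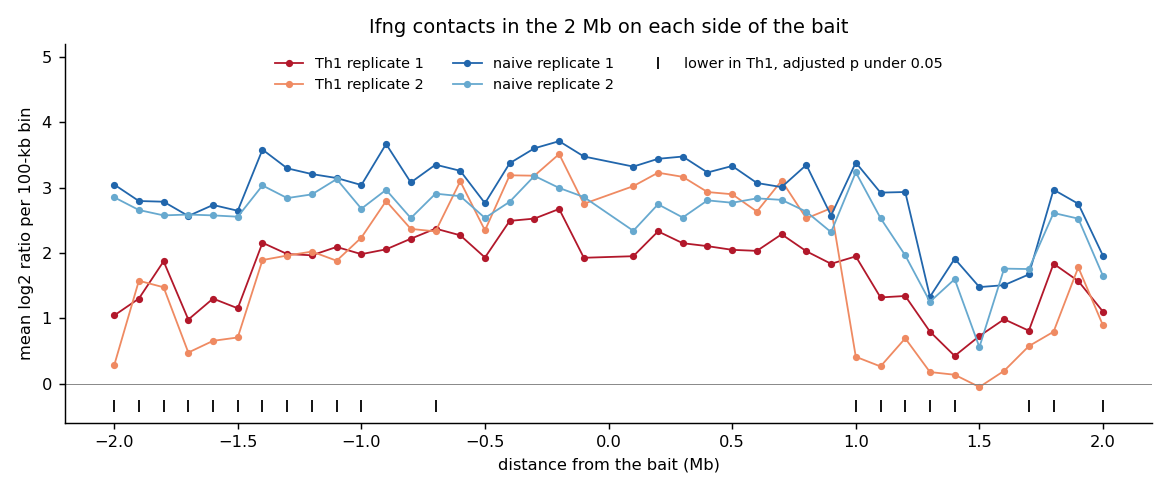
Mean log2 ratio per 100-kb bin (y axis) against distance from the bait in Mb (x axis), 1 line per array, with ticks under the bins called lower in Th1 cells. Over much of the inner 1 Mb on each side the line of Th1 replicate 2 mixes with the naive lines, and that of Th1 replicate 1 lies below them. The groups separate at 1 to 2 Mb, where 17 of 20 bins were called lower.

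The Th1 arrays differed from each other in this window. At 1 to 2 Mb they averaged 1.35 and 0.93, against 2.58 and 2.30 on the naive arrays (means of 1.14 ± 0.29 for Th1 arrays and 2.44 ± 0.20 for naive arrays, SD, n = 2 each), a difference of -1.30. The probe medians in the window were 1.36 and 0.25 on the Th1 arrays and 2.96 and 2.63 on the naive arrays. In Th1 replicate 2, 30.7% of the 335 probes stood above 1 and the highest reached 4.50, while in replicate 1 60.3% stood above 1 and the highest reached 3.49. In the naive arrays 80.6% and 79.4% stood above 1. Replicate 2 thus had fewer probes with signal than replicate 1 and a higher maximum. These falls depend on the scale of the arrays, which differs between the groups. When each array was divided by the median absolute deviation of its bins off chromosome 10, the difference at 1 to 2 Mb turned to 1.19. On that scale 4 of the 9 bins within 2 Mb were called higher in Th1 cells and 0 lower, and with division by the mean within 1 Mb of the bait 5 were lower and 0 higher. A weaker Th1 4C library and fewer contacts per cell cannot be told apart here.

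Along the chromosome the difference shrank to -0.10 at 10 to 20 Mb and was larger again, at -0.51, beyond 50 Mb. At 10 to 20 Mb the log2 ratio was 0.35 and 0.22 on the Th1 arrays and 0.39 and 0.40 on the naive arrays. Before the bait the groups overlapped at this distance (0.24 ± 0.099 for Th1, 0.30 ± 0.0069 for naive cells, SD, n = 2 each). At 20 to 50 Mb the arrays had 0.38 and 0.28 in Th1 cells, against 0.68 and 0.72 in naive cells. Beyond 50 Mb, over 10028 probes, they had 0.20 and 0.13 in Th1 cells, against 0.67 and 0.67 in naive cells. In naive cells the far end of the chromosome thus had a level above that at 10 to 20 Mb, and in Th1 cells a level below it, on each array.

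**Figure D2:**
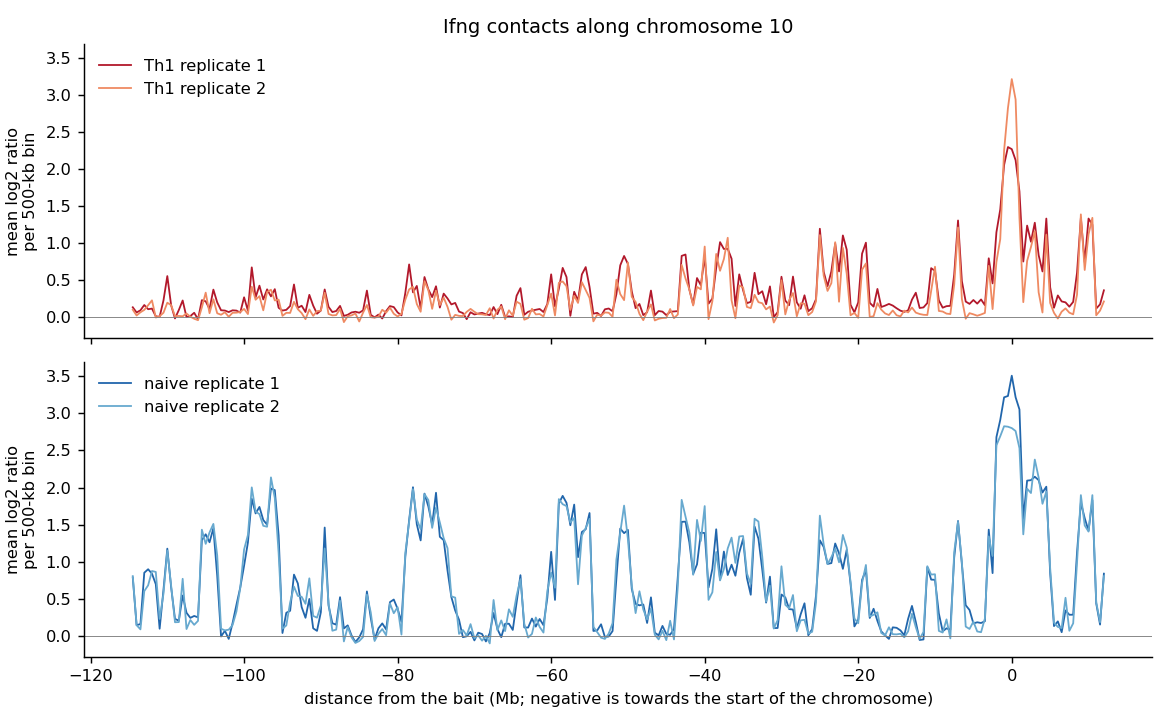
Mean log2 ratio per 500-kb bin (y axis) along chromosome 10, as distance from the bait in Mb (x axis), with the Th1 arrays above and the naive arrays below on the same scale. Naive arrays show domains near 1.5 to 2 as far as 100 Mb from the bait, and Th1 arrays show domains near 1 only within about 50 Mb.

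A measure free of the scale of an array gave the same order. Each array's highest 5% of probes were counted by position. Chromosome 10 held 19.3% and 12.5% of its probes in this set on the Th1 arrays, against 29.8% and 30.9% on the naive arrays. Within 1 Mb of the bait the shares were 91.8% and 92.2% in Th1 and 95.1% and 95.4% in naive cells. At 5 to 20 Mb they overlapped, with 20.9% and 11.9% in Th1 and 20.7% and 21.3% in naive cells. Beyond 50 Mb they were 12.2% and 7.99% in Th1 cells, against 27.6% and 28.7% in naive cells. At 1 to 2 Mb replicate 2 of Th1 again stood apart, with 35.2%, against 65.7% in replicate 1 and 82.4% and 81.2% in naive cells.

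**Figure D3:**
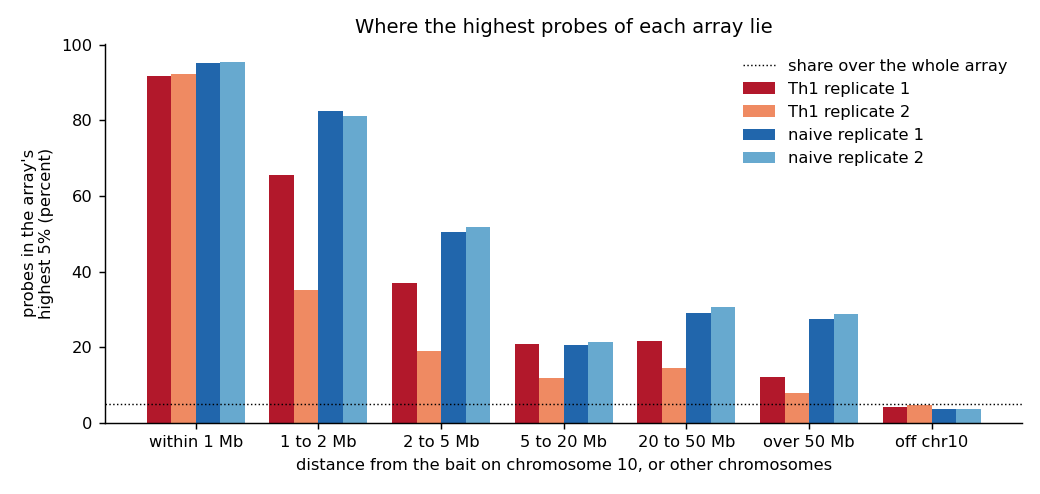
Percent of probes that belong to the array's own highest 5% (y axis) by distance from the bait on chromosome 10, and on other chromosomes (x axis), 1 bar per array, with a dotted line at the share over the whole array. Beyond 50 Mb the Th1 bars reach 12.2% and 7.99% and the naive bars 27.6% and 28.7%, while within 1 Mb the 4 bars lie between 91.8% and 95.4%.

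Across all 5026 bins of 500 kb, 581 (11.6%) were called at a limma adjusted p under 0.05, 3.88% higher and 7.68% lower. On chromosome 10, 135 of 254 bins (53.1%) were called, 0 higher and 135 lower in Th1 cells, and 43 had a positive change that did not pass. By distance, 7 of 9 bins within 2 Mb, 51 of 116 bins at 2 to 50 Mb and 77 of 129 bins beyond 50 Mb were lower. The last count held its direction under the scalings, left-out arrays and array number block given here. Other settings called a bin higher beyond 50 Mb. This was the bin at 64500001 as ranks within chromosome 10, where 10 of the 135 lower calls stayed. With eBayes trend and robust settings it was the bin at 32000001. Beyond 50 Mb, 34 of 129 bins were lower and 0 higher after division by the median absolute deviation, 45 and 0 after division by the level at 1 to 2 Mb, 66 and 0 after division by the level within 1 Mb, 64 and 0 after quantile normalization, and 67 and 0 for the share of the highest 5% of probes. Leaving out 1 array gave 70 to 77 lower and 0 higher bins, and a block for the leading digits of the array number, which set Th1 replicate 2 apart from the other 3 arrays, gave 61 and 0. The total over the genome was less steady, with 226 bins without Th1 replicate 1, 312 without Th1 replicate 2, 693 without naive replicate 1 and 235 without naive replicate 2.

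Which bins stood highest also differed. Of the 233 bins more than 5 Mb from the bait, the 20 highest by the Th1 mean and the 20 highest by the naive mean shared 5. None of the Th1 set lay beyond 50 Mb (0 of 20), and 15 of the naive set did, where 129 of the 233 bins lie. Array by array, 1 and 0 of the 20 highest bins lay beyond 50 Mb on the Th1 arrays, against 16 and 14 on the naive arrays. Replicates shared 17 of these 20 bins in Th1 and 15 in naive cells. The 20 bins chosen in Th1 cells averaged 0.93 ± 0.06 in Th1 and 1.29 ± 0.05 in naive cells, and the 20 chosen in naive cells averaged 0.56 ± 0.06 in Th1 cells and 1.78 ± 0.03 in naive cells (SD, n = 2 each). These sets were picked by their level and the values describe them.

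Bins with little signal in naive cells had little in Th1 cells. Of the 87 bins on chromosome 10 with a naive mean under 0.2, 37 lay within 50 Mb and 50 beyond, and 0 were called lower in either set. Beyond 50 Mb, the 34 bins with a naive mean of 1.2 or more were all called lower (34 of 34), with 0.38 and 0.28 on the Th1 arrays, against 1.58 and 1.58 on the naive arrays. Within 50 Mb, 30 of 35 such bins were lower, with 1.05 and 0.98 in Th1 and 1.86 and 1.82 in naive cells. Strong naive contacts thus had a Th1 mean of 0.33 when far and 1.02 when nearer, with naive means of 1.58 and 1.84. The nearer set includes the 9 bins within 2 Mb of the bait. The bait's own bin had means of 2.74 in Th1 and 3.16 in naive cells, so the peak raises both means of the nearer set. Its means without the peak were not computed. The bins were grouped by the naive level, which enters the change, so the counts are a description.

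**Figure D4:**
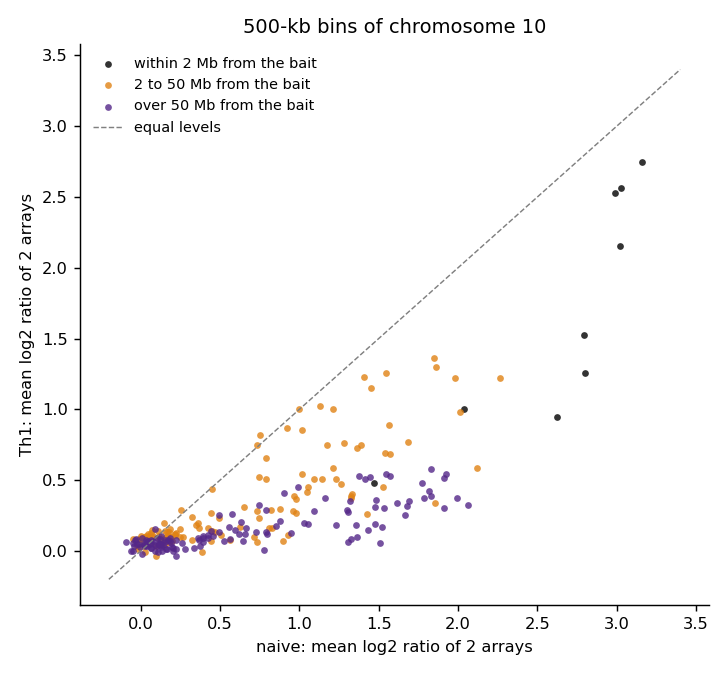
Th1 mean (y axis) against naive mean (x axis) of the log2 ratio for the 254 bins of 500 kb on chromosome 10, coloured by distance from the bait, with a dashed line of equal levels. At a naive level of 1.2 or more the bins beyond 50 Mb average 0.33 in Th1 cells. Those within 50 Mb average 1.02 but spread widely, and they include the bait's peak, where the bait bin has 2.74.

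By mean change, the largest falls off the bait's flanks lay in a few long domains. The 135 called bins merged into 31 regions of up to 7 Mb, and in all 31 the Th1 and naive arrays did not overlap. Of all single bins on the chromosome, 66.5% were lower without overlap. The regions were built from bins called lower by the same contrast, so their lack of overlap is a description only. The region with the largest mean fall, from 16500001 to 22500000 in bands 10qA2 and 10qA3, had 0.27 and 0.21 on the Th1 arrays and 1.41 and 1.41 on the naive arrays, a change of -1.16. Its bin with the smallest p had SE 0.045 (limma adjusted p = 1.77e-12). A second domain, 38500001 to 45500000 in 10qB1 and 10qB2, had 0.33 and 0.23 in Th1, against 1.35 and 1.40 in naive cells, a change of -1.10. That from 57000001 to 63000000 in 10qB4 had 0.40 and 0.30 in Th1, against 1.37 and 1.31 in naive cells, a change of -0.99. All 3 domains lie more than 50 Mb from the bait, with naive levels of 1.41, 1.37 and 1.34. All probes at 2 to 5 Mb from the bait averaged 1.33 ± 0.0077 in naive cells (SD, n = 2), with 0.68 before it and 1.96 after it. The domains were picked for their fall, which favours high naive levels, and the distance class was not picked.

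These 3 domains were lower under each rescaling. In units of the array's median absolute deviation off chromosome 10 the changes were -12.1, -10.5 and -7.92, with 10 of 12, 11 of 14 and 4 of 12 bins still called. As ranks among the 254 bins of chromosome 10 the changes were -54.0, -41.8 and -26.8 places, and 2, 1 and 1 bins passed. The region from 10500001 to 14500000 (10qA1 and 10qA2) behaved likewise, with a change of -0.76 as log2 ratio, -8.49 in deviation units and -61.4 places in rank. A lone bin in 10qD1, from 106500001 to 107000000, had 0.19 and 0.031 in Th1, against 0.92 and 0.94 in naive cells (change -0.82). Its change of -9.47 in deviation units did not pass (limma adjusted p = 0.0555), nor did that of -0.16 between bin medians in place of means (limma adjusted p = 0.439).

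For the other 5 named regions the scale mattered more. From 114500001 to 117500000, the left flank, the change was -0.98, but 8.90 in deviation units, 0.25 after division by the level at 1 to 2 Mb and 0.50 places in rank. From 118500001 to 123000000, the right flank, it was -1.08, with -0.53 in deviation units and 0 of 9 bins called. The regions at 74000001 to 79500000 (-0.73), 81000001 to 86500000 (-0.72) and 66000001 to 68500000 (-0.68) kept their sign in deviation units (-2.47, -4.86 and -0.80), but 0 of 11, 1 of 11 and 0 of 5 of their bins were called there, and the last went up by 16.9 places in rank. In the other direction, 0 of 254 bins of chromosome 10 passed limma's test. The 3 bins with the smallest p among those with a positive change had near 0 signal, at 32000001 (0.16, adjusted p = 0.0540), 64500001 (0.12, adjusted p = 0.0885) and 47500001 (0.11, adjusted p = 0.160), by limma. As a rank within the chromosome, the bin at 64500001 passed (79.5 places, limma adjusted p = 0.0262), and the bin at 32000001 passed with eBayes trend and robust settings (limma adjusted p = 0.0234).

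Some of the highest Th1 bins at middle distance also had signal in naive cells. The bin from 110500001 to 111000000 had 1.31 and 1.21 on the Th1 arrays and 1.55 and 1.54 on the naive arrays. The bin from 127500001 to 128000000, on the other side of the bait, had 1.33 and 1.12 in Th1, against 1.42 and 1.40 in naive cells. The bin from 92500001 to 93000000 had 1.20 and 1.11 in Th1, against 1.29 and 1.62 in naive cells. At 79500001 to 80000000 the arrays overlapped, with 1.02 and 0.63 in Th1 and 0.76 and 0.75 in naive cells. They overlapped too at 98000001 to 98500000, with 0.86 and 0.64 in Th1 and 0.75 and 0.71 in naive cells. In both of these bins the naive arrays lay near their mean over all bins of chromosome 10 (0.74 and 0.73). Of these 5 bins, the first was called lower (change -0.28, limma adjusted p = 0.00144) and 4 did not pass. They are among the 20 highest Th1 bins and were named for that, and none is among the 20 highest naive bins. The 5 bins in both sets began at 74500001, 75000001, 77500001, 126500001 and 128000001. Each was called lower by limma, with changes from -0.92 to -0.48. After division by the median absolute deviation 16 bins of chromosome 10 were called higher in Th1 cells, the 5 bins described first among them. Of the 16, 12 lay at 2 to 50 Mb, 4 within 2 Mb and 0 beyond 50 Mb. After division by the level at 1 to 2 Mb 18 were, of which 0 lay beyond 50 Mb. With centring alone 0 were called higher, and 1 was without Th1 replicate 2 or with the array number block.

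On chromosome 10, lightly staining chromatin, which is rich in genes, had more signal than the darkest Giemsa bands in both groups. The light class includes the bait's own band 10qD2, with the peak and its flanks. Off chromosome 10 the Th1 arrays showed almost no such difference (-0.0037 and 0.010). On chromosome 10 the 120 bins in Giemsa-negative bands averaged 0.44 and 0.34 in Th1, against 0.94 and 0.93 in naive cells, and 75 of them were lower. The 97 bins in the darkest class (gpos100) averaged 0.19 and 0.12 in Th1, against 0.42 and 0.42 in naive cells, and 40 were lower. These are 62.5% of the light and 41.2% of the dark bins, where 53.1% of all bins on the chromosome were lower. The difference between light and dark was 0.25 and 0.22 on the Th1 arrays, against 0.51 and 0.51 on the naive arrays. In deviation units it was 7.82 and 6.80 on the Th1 arrays, against 8.48 and 5.90 on the naive arrays, and the groups overlapped. The larger fall in light bands on the log2 scale was thus not seen in deviation units. Other scales were not tried for this difference on chromosome 10.

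Genes could be placed only in whole cytogenetic bands, by their band in a RefSeq table of another build (GRCm38.p6). The stretch of a band that changed need not be where its named genes lie. Of all 401 bands 40.1% were called (25.9% higher and 14.2% lower). Of 17 bands on chromosome 10, 15 (88.2%) were lower by limma and 0 higher, against 10.9% lower and 27.1% higher of 384 bands elsewhere (38.0% in all). Of 35 landmark genes 29 could be placed, in 9 bands, of which 8 were lower, and 6 lay too near an edge (Foxo3, Egr2, Socs2, Btg1, Dusp6 and Kitl). The bait's own band 10qD2 holds Ifng and its neighbour Il22, a cytokine gene that acts on epithelia, with Mdm1, the p53 regulator Mdm2, Rap1b, Dyrk2, Hmga2 and the Toll-like receptor inhibitor Irak3. It had 0.92 and 0.78 in Th1, against 1.59 and 1.46 in naive cells, a change of -0.68 (SE 0.074, limma adjusted p = 0.000554), which turned to 4.99 in deviation units.

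Among the landmark genes, 4 bands far from the bait held the following. Band 10qA3, with Ifngr1, the ligand-binding chain of the interferon gamma receptor, Tnfaip3, an inhibitor of NF-kappaB signalling, and the progenitor factor Myb, had 0.29 and 0.21 in Th1, against 1.33 and 1.34 in naive cells. Its change of -1.09 (SE 0.031, limma adjusted p = 1.23e-07) was the largest of the 17 bands. Band 10qB4, with the perforin gene Prf1 and Sgpl1, an enzyme of sphingosine 1-phosphate breakdown, had 0.31 and 0.22 in Th1, against 1.05 and 0.99 in naive cells, a change of -0.75. Band 10qB2, with Prdm1 (Blimp-1, a repressor that drives plasma cell differentiation), changed by -0.68. Band 10qB1, with the T cell receptor kinase Fyn, changed by -0.56. In these 4 bands the groups did not overlap, as in all 17 bands of chromosome 10, whether called or not. The sign of the change in these 4 bands did not change under any setting.

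Nearer to the bait, and past it, 4 more bands held landmark genes. Band 10qC1, with the integrin chain Itgb2, the costimulatory ligand Icosl, Aire and Gadd45b, changed by -0.56 (limma adjusted p = 6.36e-05), and by -1.22 in deviation units, where it did not pass. Band 10qD3, with Stat6 and Stat2, which carry interleukin 4 and type I interferon signals, Il23a, Ikzf4, Erbb3, Gli1, Cdk4 and Ddit3, had 0.55 and 0.44 in Th1, against 0.82 and 0.80 in naive cells, a change of -0.31 (limma adjusted p = 0.00910) that turned to 4.15 in deviation units. Band 10qC2, with the apoptosis gene Apaf1, changed by -0.24 and turned to 3.87. Band 10qD1, with the synaptic gene Syt1, had 0.31 and 0.19 in Th1, against 0.35 and 0.34 in naive cells, and did not pass (change -0.09, limma adjusted p = 0.241); it turned to 3.05 in deviation units.

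On the other chromosomes the signal was weak in both groups, and it was flatter in Th1 cells. Of 4772 bins, 446 (9.35%) were called, 195 (4.09%) higher in Th1 cells and 251 (5.26%) lower, by limma. The 251 lower bins averaged 0.036 and 0.045 on the Th1 arrays, against 0.24 and 0.29 on the naive arrays. The 195 higher bins averaged 0.081 and 0.058 on the Th1 arrays, against -0.089 and -0.13 on the naive arrays. All 4772 bins together averaged 0.046 and 0.037 in Th1, against 0.028 and 0.027 in naive cells. In Th1 cells both sets therefore lay close to the level of all bins, and in naive cells they stood out, as a description of bins chosen by this contrast. These counts moved with the arrays: without Th1 replicate 1, 16 were higher and 76 lower, and without naive replicate 2, 9 were higher and 100 lower. After division by the median absolute deviation 32 were higher and 9 lower, and after division by the level at 1 to 2 Mb 128 were higher and 19 lower. With only the 4 compared arrays giving the spread, 94 of the 195 higher and 173 of the 251 lower calls stayed.

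**Figure D5:**
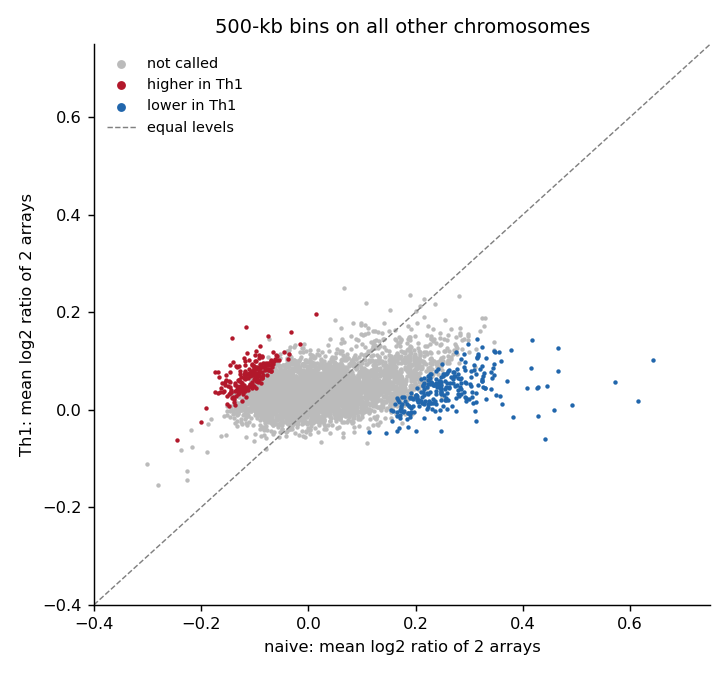
Th1 mean (y axis) against naive mean (x axis) of the log2 ratio for 4772 bins of 500 kb off chromosome 10, with called bins in colour and a dashed line of equal levels. The 251 bins lower in Th1 spread along the naive axis and stay near 0.04 in Th1 cells, and the 195 higher bins average -0.11 on the naive axis.

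The named trans regions lower in Th1 cells were weak contacts of naive cells that were at background in Th1 cells. The region with the largest fall, on chromosome 2 from 43500001 to 44500000 (band 2qB), had 0.013 and 0.035 on the Th1 arrays, against 0.44 and 0.52 on the naive arrays, a change of -0.46. Its bin with the smallest p had SE 0.061 (limma adjusted p = 2.42e-06). On chromosome 12 the region from 106500001 to 108000000 (12qF1) had 0.019 and 0.042 in Th1, against 0.40 and 0.47 in naive cells. The longest, on chromosome 16 from 91000001 to 94500000 (16qC3.3 and 16qC4), held 7 bins and had 0.051 and 0.066 in Th1, against 0.40 and 0.46 in naive cells, a change of -0.37. In all 3 regions the Th1 arrays lay near 0 and the naive arrays well above it, and the sign held in the 3 regions under all settings tried. Between bin medians in place of means, however, the changes shrank to -0.066 on chromosome 2, -0.12 on chromosome 12 (0 of 3 bins called, lowest limma adjusted p = 0.0518) and -0.17 on chromosome 16. Another 7 regions completed the set, on chromosome 15 from 58500001 (-0.36), chromosome 14 from 51500001 (-0.36) and from 53500001 (-0.35), chromosome 3 from 103500001 (-0.31), chromosome 9 from 21500001 (-0.31), chromosome 18 from 80500001 (-0.31) and chromosome 2 from 11000001 (-0.30). Of all 10, 3 lost their call when some array was left out. The last was -0.15 without naive replicate 2 (limma adjusted p = 0.236) and -0.45 without naive replicate 1.

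The regions higher in Th1 cells were shorter and their changes smaller. The 170 regions reached 1.5 Mb at most, against 3.5 Mb for the 180 lower ones. The largest change was 0.29, on chromosome 12 from 44500001 to 45000000 (12qB2), with 0.14 and 0.15 on the Th1 arrays and -0.13 and -0.16 on the naive arrays (SE 0.046, limma adjusted p = 0.000497). The other 9 named regions changed by 0.23 to 0.25 and lay on chromosomes 1, 2, 7 and 17. Of all 10, 7 lost their call when some array was left out, and the change on chromosome 7 from 41500001 dropped to 0.13 without Th1 replicate 1 (limma adjusted p = 0.248), against 0.23 with all arrays. In each of the 10 the naive level was negative, so they were bins with less signal than the typical trans probe in naive cells.

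Chromosome means showed the same flattening. Off chromosome 10 they ran from 0.035 on chromosome 19 to 0.043 on chromosome 4 in Th1 cells, leaving out the Y, which has 235 probes. In naive cells they ran from -0.033 on the X to 0.072 on chromosome 11. The Th1 and naive arrays did not overlap on 9 of 20 chromosomes (45.0%) with Th1 higher and on 5 (25.0%) with Th1 lower. With deviation scaling all 20 were higher in Th1 cells without overlap. The direction of the 5 falls, that of chromosome 11 among them, thus depended on the scale. The X had 0.054 and 0.032 in Th1, against -0.017 and -0.049 in naive cells, with 18 of 292 bins called higher and 0 lower. Chromosome 11, which is rich in genes, had 0.040 and 0.045 in Th1, against 0.062 and 0.081 in naive cells. Of its 238 bins, 2 were higher and 21 lower. Of all bins off chromosome 10, 4.09% were higher and 5.26% lower. Chromosome 11 was not alone in its lower bins, with 23 of 242 bins lower and 2 higher on chromosome 9, and 22 of 201 lower and 8 higher on chromosome 15. The difference between light and dark Giemsa bands off chromosome 10 was 0.0033 ± 0.0099 in Th1, against 0.047 ± 0.015 in naive cells (SD, n = 2 each).

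Lists of T cell genes were read by band outside chromosome 10, where 42 of 384 bands (10.9%) were lower and 104 (27.1%) higher, with a median change of 0.02. Of the Th1 programme, 22 of 25 genes were placed, in 17 bands, of which 3 were lower and 2 higher, with a median change of -0.03. Among the higher bands was 3qB, with the growth factor gene Il2, which had 0.059 and 0.026 in Th1, against -0.0094 and -0.0079 in naive cells (change 0.05, limma adjusted p = 0.0394). Lower were 4qD3, with Runx3, a partner of T-bet at Ifng (0.038 and 0.10 in Th1, against 0.18 and 0.22 in naive cells, change -0.13, limma adjusted p = 0.0115), 1qB, with the interleukin 18 receptor genes Il18r1 and Il18rap (change -0.06), and 11qB1.3. The band of Tbx21, which encodes T-bet, did not pass (11qD, change -0.04, limma adjusted p = 0.151).

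Band 11qB1.3 holds the Th2 cytokine genes Il4, Il5 and Il13, with Irf1 and the naive T cell factor Tcf7. It had 0.032 and 0.044 in Th1, against 0.11 and 0.14 in naive cells, a change of -0.09 (SE 0.019, limma adjusted p = 0.0121). Of the Th2 programme, 11 of 15 genes off chromosome 10 were placed, in 8 bands, of which 2 were lower and 0 higher, with a median change of -0.05. Of the naive T cell list, 10 of 12 were placed, in 10 bands, of which 1 was lower (that of Tcf7) and 0 higher, with a median of 0.0062. Of the JAK-STAT list, 15 of 18 off chromosome 10 were placed, in 11 bands, of which 0 were lower and 1 higher. With so few bands per list, these counts are descriptions beside the shares of all bands. Without Th1 replicate 1 only 27 bands were called in the whole genome, and without naive replicate 2 only 25, so the number of band calls depended on which arrays were included.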

How the data were processed

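Per the labels' protocols, 4C DNA (HindIII, then Csp6I, inverse PCR from the bait) was labelled with Cy5 and hybridised against genomic DNA cut with both enzymes, labelled with Cy3. Each deposited file gives a log2 ratio, Cy5 to Cy3, for every probe. Base 2 is assumed, and scanner software, background correction and build are not given in the sources used here. Of mm7, mm8, mm9 and mm10, only mm8 had 0 of 21 chromosomes with a probe past the end, and chromosomes numbered 20 and 21 in the files were taken as X and Y.

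From each array the median over probes outside chromosome 10 was subtracted, with no loess or quantile step. Means were taken over 500-kb bins (at least 20 probes), 100-kb bins (at least 10) and 401 mm8 cytogenetic bands (circlize 0.4.16). They were fitted with limma 3.58.1 in R 4.3.3 (lmFit, contrast Th1 minus naive, eBayes, two-sided), with all 10 Ifng arrays giving the spread, and Benjamini-Hochberg adjustment over all bins or bands at 0.05. The fit was tested on simulated data. Neighbouring bins called in one direction were joined into regions. The change of a region is the mean of its bins, and its SE and adjusted p are those of its best bin. Distance classes, Giemsa classes and chromosome means had no test. Regions were named by size of mean change, up to 10 each for lower and higher, on and off chromosome 10, among those in which Th1 and naive arrays do not overlap, or the 3 bins with the smallest p where fewer than 3 pass. Bins in Th1's and naive cells' 20 highest were named for their level, after the values were seen. Genes within 1 Mb of a band edge were not placed. The values of 1 band off chromosome 10 are not reported here. The members, lists and rules were chosen with earlier results of these data known. The number of arrays limits the precision. Python 3.11.15, numpy 2.4.6, pandas 2.3.3 and matplotlib 3.10.9 were used.

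Alternatives were other scalings (division by the median absolute deviation of bins off chromosome 10 or by the level at 1 to 2 Mb), quantile normalization, medians, bins of 200 and 1000 kb, other filters and fits, a replicate block, a block for the leading digits of the array number, and each array left out in turn. Division by the level within 1 Mb, ranks within chromosome 10, deviation scaling with each array left out, and deviation scaling of the light minus dark difference on chromosome 10 were added after seeing the data.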

Additional observations from a re-analysis of the deposited data

How the results depend on the processing

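The called 500-kb bins numbered 581, against 93 after division by the median absolute deviation, 225 after division by the level at 1 to 2 Mb, 189 by that within 1 Mb (chosen after seeing the data), 228 with quantile normalization, 280 with medians, 910 with eBayes trend and robust settings, 201 with the array number block, 149 for the share of the highest 5% of probes, and 16 of 254 for ranks within chromosome 10 (chosen after seeing the data). Leaving out 1 array gave 226 to 693, and with deviation scaling (chosen after seeing the data) 94 and 221 without Th1 replicates 1 and 2, and 35 and 63 without naive replicates 1 and 2. The 525 called 100-kb bins became 99, 197, 256, 271, 249 and 164 under deviation, 1 to 2 Mb and within 1 Mb scaling, quantile normalization, medians and the array number block, and 269 to 634 without 1 array. The 161 called bands became 85 with quantile normalization, 66 with medians, 61 with the array number block, 94 with within 1 Mb scaling and 25 to 188 without 1 array. With only the 4 compared arrays giving the spread, 412 and 384 bins and 127 bands were called. With the replicate number as a block, 548 and 521 bins and 146 bands were called. The 2 numbers do not pair the arrays in the labels, and same-numbered deviations correlated at 0.093 over all bins and 0.168 over bins off chromosome 10. The difference at 1 to 2 Mb (-1.30) became 1.19 with deviation scaling, -0.67 with quantile normalization and -1.99 with medians. The light minus dark difference (-0.044) became -0.53 in deviation units. The 9 chromosomes higher without overlap became 20 with deviation scaling and 3 with medians.

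Signs turned as follows. The region from 114500001 gave 8.90 with deviation scaling, 0.25 with 1 to 2 Mb scaling and 0.50 as ranks, and that from 66000001 gave 16.9 as ranks. With deviation scaling bands 10qB3, 10qB5.2, 10qC2, 10qC3, 10qD1, 10qD2 and 10qD3 gave 0.11, 1.92, 3.87, 4.89, 3.05, 4.99 and 4.15. On that scale the 5 chromosomes lower without overlap, chromosome 11 among them, became higher. With 1 to 2 Mb scaling 10qB5.2, 10qC2, 10qC3, 10qD1, 10qD2 and 10qD3 gave 0.054, 0.10, 0.12, 0.077, 0.13 and 0.11. With medians 10qB3 gave 0.015 and 10qD1 0.040, and 10qD1 gave 0.017 with quantile normalization. The cause was not tested. With 2 arrays a group, precision is limited throughout.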
